A study of Homo sapiens with 12 samples.

Results

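The genes described here encode 8 inhibitory receptors of B cells and related immune cells that signal through an immunoreceptor tyrosine-based inhibitory motif (ITIM): CD300A, CD22, CD72, FCGR2B, LILRB1, PECAM1, SIGLEC10 and LAIR1. They were chosen by name, as genes of 1 functional class, with earlier results of these data known. Shares over all genes are thus set beside their counts, and those of the gene lists below, as description only. Every probe set that named 1 of the receptors alone was taken. This gave 20 probe sets of the 54675 on the array and 8 of 19775 genes. Their RNA was measured on 12 Affymetrix arrays in Rec-1, SP-49 and Mino, established human lines of mantle cell lymphoma, a cancer of mature B cells. In each line, 2 arrays came from cells exposed to compound E at 1 µM (24 h), the group named GSI. Compound E inhibits gamma-secretase, the protease that cuts Notch receptors and so frees their signalling part. The other 2 arrays of each line came from cells exposed to 0.1% DMSO for as long, the group named Mock. Rec-1 and SP-49 were grown in 10% serum and Mino in 15%, so serum level and line cannot be told apart when Mino is compared with the others. The labels do not say whether the 2 arrays of a group came from separate cultures, so p-values here reflect the spread between arrays alone, and that spread may be technical.

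An ITIM is a short tyrosine sequence in the cytoplasmic tail of a receptor. When the receptor is brought next to the antigen receptor, kinases of the Src family such as LYN phosphorylate that tyrosine, and the phosphatases SHP-1, SHP-2 or SHIP-1 (genes PTPN6, PTPN11 and INPP5D) bind to it and dampen the antigen signal. The ligands differ. CD300A binds the membrane lipids phosphatidylserine and phosphatidylethanolamine, CD22 and SIGLEC10 bind sialic acids on glycoproteins, CD72 binds semaphorin 4D, FCGR2B binds the Fc part of IgG in immune complexes, LILRB1 binds MHC class I molecules, LAIR1 binds collagens, and PECAM1 binds PECAM1 on a neighbouring cell.

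Values are log2 levels as normalized between arrays by the authors, and a change is the GSI mean minus the Mock mean of log2 levels. The brightness of a probe set depends on its sequence, so a level is compared here only with other levels of the same probe set. The median of all values was 1.99, and a fall that ends near that level is understated. Changes were tested with limma over all genes, with Benjamini-Hochberg adjustment and a threshold of 0.05. The arrays are of bulk RNA, so fewer cells with a transcript and less of it per cell cannot be told apart. HES1, a direct Notch target, was lower with GSI in Rec-1 (change -3.80) and SP-49 (-3.51) and had a change of -0.07 in Mino, where its mean level was 1.77 with GSI and 1.84 with Mock. B-cell markers were above the array median in every group for 5 of 5 genes measured, and mantle cell lymphoma markers for 3 of 3. The lowest group mean of a lymphoma marker was 2.40, close to that median. Myeloid markers were at or below the array median in every group for 7 of 7. Of 8 T and NK cell markers 3 were above it in every group, with CD3D reaching a Mock mean of 4.80 in Rec-1, where it fell by 0.63 with GSI (adjusted p = 0.0253 by limma). No other T or NK cell marker passed with GSI in any line. Of 8 endothelial and platelet markers 5 were above it, and none had a group mean above 2.77.

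Of the 8 receptors, 2 changed with GSI in Rec-1, CD300A downwards and CD72 upwards, where 5.77% of all genes passed the threshold. In SP-49 only CD300A passed, and it fell, where 0.192% of all genes passed. In Mino 0 of the 8 passed with limma, where the percentage over all genes was 0%. There 0 of the 8 had an unadjusted p under 0.05, where 4.90% of all genes did. The median change of the 8 receptors was 0.17 in Rec-1, -0.02 in SP-49 and -0.08 in Mino, beside medians over all genes of 0.01, -0.02 and -0.004. Both GSI arrays lay above both Mock arrays for 4 receptors in Rec-1 (22.9% of all genes did), 1 in SP-49 (18.1%) and 2 in Mino (16.2%), and below them for 2 (22.3%), 3 (24.4%) and 3 (17%) in the same order of lines. Between lines without inhibitor, by contrast, 6 of the 8 receptors differed between Rec-1 and Mino, 5 between SP-49 and Mino, and 4 between Rec-1 and SP-49, where 26.1%, 25.6% and 28.9% of all genes did.

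**Figure D1:**
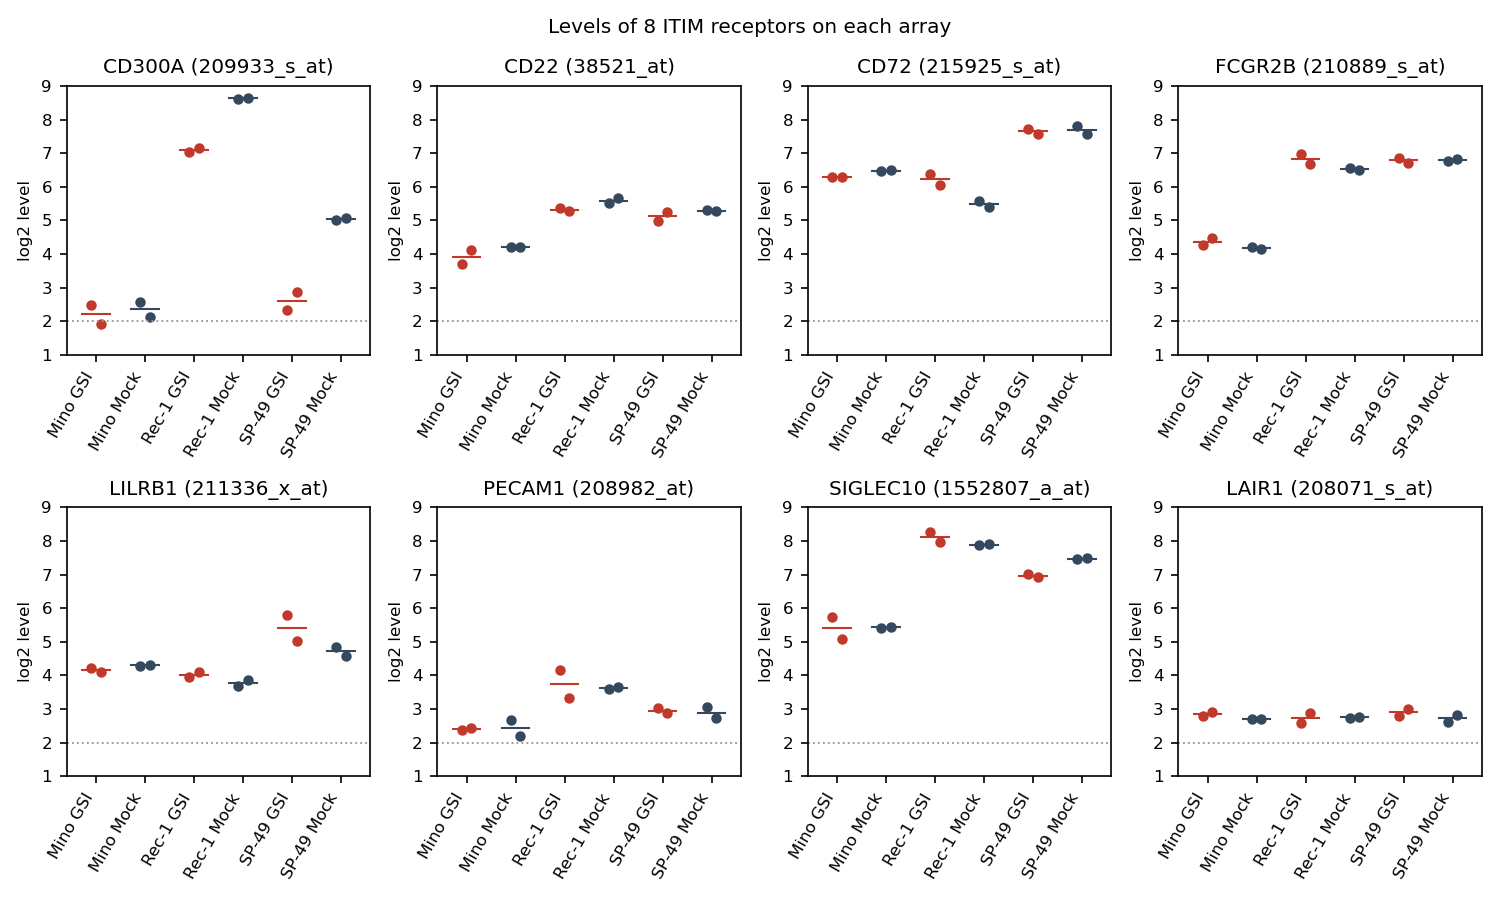
Log2 level of each of the 8 receptors on each of the 12 arrays, 1 panel per gene with its representing probe set in brackets. Points are arrays, short lines group means (n = 2), red GSI and dark blue Mock, and the dotted line is the median of all values (1.99). CD300A spans the widest range of the 8 genes, with group means between 2.20 and 8.63, and LAIR1 the narrowest, with group means between 2.71 and 2.90.

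CD300A was the receptor with the largest change in Rec-1 and in SP-49. On its brightest probe set, 209933_s_at, Rec-1 had levels of 7.03 and 7.15 on the GSI arrays and 8.62 and 8.64 on the Mock arrays. SP-49 had 2.34 and 2.87 on the GSI arrays and 5.00 and 5.07 on the Mock arrays. Mino had 2.49 and 1.92 on the GSI arrays and 2.57 and 2.13 on the Mock arrays. Both GSI arrays therefore lay below both Mock arrays in Rec-1 and SP-49, with gaps much wider than those between replicates, while the groups overlapped in Mino. With GSI, SP-49 came to levels within the range of the 4 Mino arrays on 1 array and somewhat above their highest on the other. Rec-1 with GSI stayed above SP-49 without it.

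In Rec-1 CD300A fell by 1.54 log2 units, or 2.91-fold (95% interval of the change -2.02 to -1.05), with a limma adjusted p of 0.0025. In SP-49 it fell by 2.43 (95% interval -2.92 to -1.95), 5.40-fold, with a limma adjusted p of 0.000764. The GSI mean there was 2.60, near the median of all values, so this fall may be understated. In Mino the change was -0.15 (95% interval -0.64 to 0.33; adjusted p = 1.00 by limma). Both falls stayed past the threshold whichever of the 12 arrays was left out, with values from -1.60 to -1.48 in Rec-1 and from -2.70 to -2.17 in SP-49. With the mean of its 3 probe sets, 1 of them near the array median throughout, the changes were -1.24 in Rec-1 and -1.03 in SP-49, both past the threshold. Over the 10 alternatives other than leaving out 1 array, the highest adjusted p of the fall in Rec-1 was 0.0494 by limma, barely past it. A sign of RNA quality, the 3' minus 5' difference of the GAPDH control probe sets, was 0.593 and 0.488 on the GSI arrays of Rec-1 against 0.413 and 0.367 on its Mock arrays, and 0.345 and 0.444 on the GSI arrays of SP-49 against 0.350 and 0.336 on its Mock arrays. In Mino it was 0.310 and 0.392 on the GSI arrays against 0.260 and 0.250 on the Mock arrays. It thus separated the groups in Rec-1 and in Mino, where CD300A had no call, and overlapped in SP-49. The part of RNA quality in the changes of the receptors was not tested. Without the GSI arrays numbered 2 of Rec-1 and SP-49, whose values had the narrowest spread, CD300A had changes of -1.60 in Rec-1 and -2.70 in SP-49, both past the threshold.

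The difference between lines was tested as the GSI effect in 1 line minus that in another. For CD300A it was -2.28 for SP-49 minus Mino (95% interval -2.97 to -1.60; adjusted p = 0.0336 by limma), the only receptor of the 8 past the threshold in that contrast, in which 0.0455% of all genes passed. Leaving out 1 array ended this call in 8 of 12 cases: each Mock array of each line, GSI replicate 1 of Mino and GSI replicate 1 of SP-49. The highest adjusted p, 0.235, came without the first Mock array of SP-49. The call was also lost with the mean of the probe sets (difference -1.11; adjusted p = 0.119 by limma), after a further quantile normalization (adjusted p = 0.0961) and in a fit of only the arrays compared (adjusted p = 0.0548). For Rec-1 minus Mino the difference of CD300A was -1.39 (adjusted p = 0.0589 by limma), and 0 of the 8 receptors passed where 1.43% of all genes did. With an unadjusted p under 0.05 there were 2 receptors, CD300A and CD72, beside 14.1% of all genes. For Rec-1 minus SP-49 the difference of CD300A was 0.89 (95% interval 0.21 to 1.58; adjusted p = 0.301 by limma), and 0 of the 8 receptors passed where 0.556% of all genes did. There 3 receptors had an unadjusted p under 0.05, CD300A, CD72 and SIGLEC10. The contrasts that involve Mino share its arrays.

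The 3 probe sets of CD300A did not behave alike. Probe set 217078_s_at had levels of 3.43 and 3.41 on the GSI arrays of Rec-1 and 5.48 and 5.33 on its Mock arrays. In SP-49 it had 1.34 and 1.15 on the GSI arrays and 2.11 and 1.94 on the Mock arrays. In Mino it had 1.65 and 1.53 on the GSI arrays and 1.30 and 1.16 on the Mock arrays. The GSI arrays of Rec-1 and SP-49 thus lay below their Mock arrays on this probe set as well, although SP-49 and Mino were near or under the array median throughout. When all 54675 probe sets were tested on their own, 217078_s_at fell by 1.99 in Rec-1 (adjusted p = 4.7e-05 by limma), and had a change of -0.79 in SP-49 (adjusted p = 0.0787 by limma) and 0.36 in Mino. Its GSI effect differed between Rec-1 and Mino by -2.35 (adjusted p = 0.000651 by limma) and between Rec-1 and SP-49 by -1.20 (adjusted p = 0.0336 by limma). On this probe set the Mock mean of SP-49 was 2.03, at the median of all values, which limits the fall that could be measured there, so it gives no order of the 2 lines by size of fall. The remaining probe set, 217072_at, lay between 1.28 and 2.14 on all 12 arrays, with changes between -0.19 and 0.12. Of the 20 probe sets of the 8 receptors, 3 passed in Rec-1 (3.13% of all probe sets did), 1 in SP-49 (0.0494%) and 0 in Mino (0%), by limma. For the difference of effects, 1 probe set, of CD300A in each case, passed for Rec-1 minus Mino (0.587% of all probe sets did), for SP-49 minus Mino (0.0219%) and for Rec-1 minus SP-49 (0.201%).

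**Figure D2:**
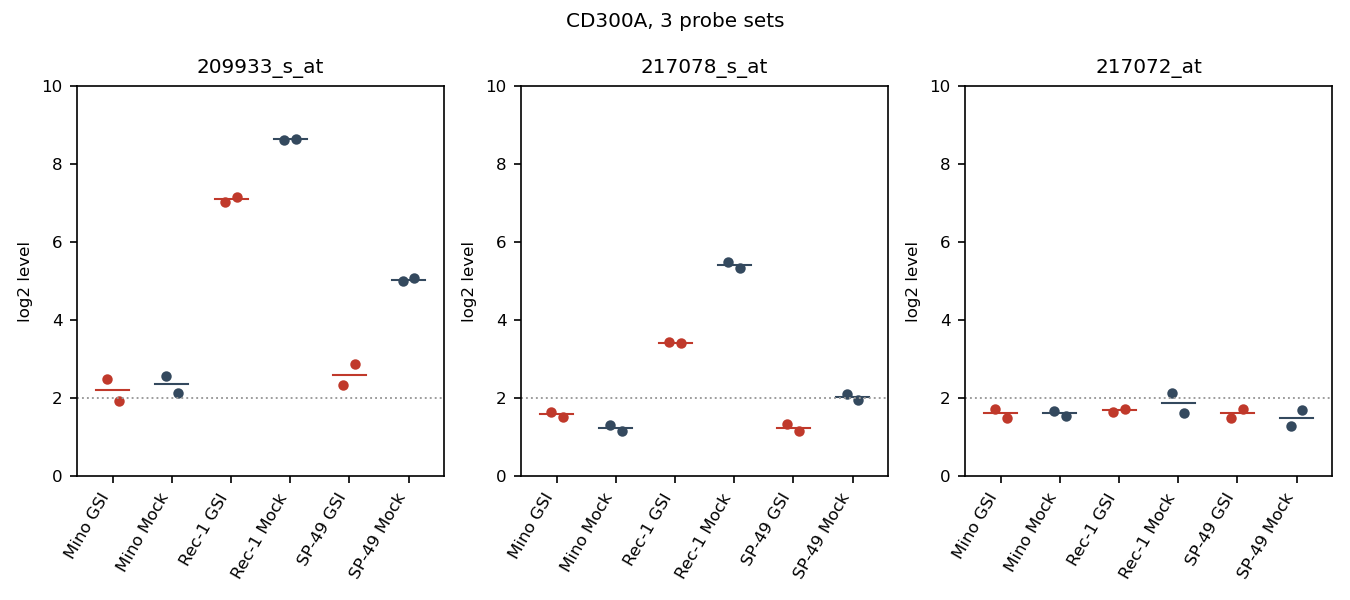
Log2 level of CD300A on each array, 1 panel for each of its 3 probe sets. Points are arrays, short lines group means (n = 2), red GSI and dark blue Mock, and the dotted line is the median of all values. On 209933_s_at and 217078_s_at the GSI arrays of Rec-1 and SP-49 lie below the Mock arrays, and 217072_at stays between 1.28 and 2.14.

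CD300A lies on chromosome 17 among other genes of its family. RefSeq gives 2 start sites for it, and the 250 bases before each follow here because CD300A fell in the same lines as HES1, whose start region is shown for comparison. All are from GRCh38.p14, plus strand, and capitals mark TGGGAA, the core of the sequence that RBPJ, the DNA-binding partner of Notch, recognises.
CD300A chr17:74466123-74466372: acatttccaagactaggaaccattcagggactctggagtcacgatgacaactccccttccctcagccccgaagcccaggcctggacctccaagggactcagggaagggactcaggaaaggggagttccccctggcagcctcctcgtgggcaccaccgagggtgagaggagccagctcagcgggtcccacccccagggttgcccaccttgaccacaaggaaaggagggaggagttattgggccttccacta
CD300A chr17:74466384-74466633: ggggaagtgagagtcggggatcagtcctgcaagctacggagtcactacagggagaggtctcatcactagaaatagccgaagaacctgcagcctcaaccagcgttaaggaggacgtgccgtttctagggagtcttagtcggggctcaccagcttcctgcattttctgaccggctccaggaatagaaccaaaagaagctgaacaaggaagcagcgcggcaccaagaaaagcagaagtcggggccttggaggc
HES1 chr3:194135898-194136147: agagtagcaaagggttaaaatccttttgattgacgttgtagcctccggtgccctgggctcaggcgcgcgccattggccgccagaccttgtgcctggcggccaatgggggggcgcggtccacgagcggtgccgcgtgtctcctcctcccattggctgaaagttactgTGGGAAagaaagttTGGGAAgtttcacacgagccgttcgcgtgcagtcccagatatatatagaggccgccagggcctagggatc

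TGGGAA was searched on both strands. Neither CD300A window held it, while the HES1 window held it at 2 places, beginning at positions -84 and -70 from the start. Of 35116 windows of the same length, 7321 or 20.8% held it at least once, so a match alone is common. Among the other receptors with a window here, it was in 1 of 2 windows of FCGR2B, 1 of 3 of LILRB1 and 2 of 2 of LAIR1, and in none of those of CD22, CD72 and SIGLEC10. FCGR2B, LILRB1 and LAIR1 had no call with GSI on their representing probe sets, and LILRB1 rose in SP-49 with the mean of its probe sets (0.75; adjusted p = 0.0302 by limma). The letters describe these windows only.

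Of the 6 genes nearest to CD300A in RefSeq's order, 4 were measured here, and none of these 4 had a call with GSI in any line. Over all genes 5.77% passed in Rec-1, 0.192% in SP-49 and 0% in Mino. CD300LB and CD300C, activating relatives that follow it, had highest group means of 2.78 and 2.42, and GPRC5C, which precedes it, had 4.59. Of 6 genes written down for the rest of the CD300 family, 4 were measured, and 0 of 4 passed in Rec-1, SP-49 or Mino by limma. Their median changes were -0.01, -0.09 and -0.09. Beside the shares over all genes just given, a count of 0 among so few genes says little about the family. None of these 4 genes had an unadjusted p under 0.05 in any line, where 19.2%, 8.87% and 4.90% of all genes did.

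CD72 was the receptor that rose with GSI in Rec-1. Its single probe set, 215925_s_at, had levels of 6.38 and 6.05 on the GSI arrays of Rec-1 and 5.57 and 5.40 on its Mock arrays. SP-49 had 7.72 and 7.58 on the GSI arrays and 7.80 and 7.58 on the Mock arrays. Mino had 6.30 and 6.29 on the GSI arrays and 6.47 and 6.49 on the Mock arrays. Both GSI arrays of Rec-1 lay above both of its Mock arrays and close to the level of Mino, whereas the groups overlapped in SP-49 and the GSI arrays of Mino lay slightly below its Mock arrays. In Rec-1 CD72 rose by 0.73 (95% interval 0.41 to 1.05), 1.66-fold, with a limma adjusted p of 0.0139. The adjusted p became 0.0517 when Mock replicate 1 was left out, 0.118 when Mock replicate 2 was, and 0.167 in a fit of the 4 Rec-1 arrays alone. In SP-49 the change was -0.04 and in Mino -0.19 (adjusted p = 0.976 and 1.00 by limma). The GSI effect differed by 0.92 between Rec-1 and Mino (95% interval 0.47 to 1.37; adjusted p = 0.0586 by limma) and by 0.78 between Rec-1 and SP-49 (95% interval 0.32 to 1.23; adjusted p = 0.163 by limma), so neither difference passed.

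Of 5 B-cell markers MS4A1 and CD79B rose with GSI in Rec-1, by 0.51 and 1.06, where 5.77% of all genes passed the threshold. With the mean of its probe sets CD79B had a change of 0.29 and lost its call. The mean level of the 5 lay in the same direction as CD72 there, at 9.59 and 9.80 on its GSI arrays against 9.28 and 9.34 on its Mock arrays. In SP-49, where CD72 had no call, the marker mean was 9.43 and 9.59 with GSI against 9.22 and 9.20 with Mock. In Mino it was 9.03 and 8.98 with GSI against 8.99 and 9.09 with Mock. The part of these values in the change of CD72 was not tested.

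CD22 and SIGLEC10, the receptors for sialic acids, had no call with GSI. CD22, on probe set 38521_at, had 5.36 and 5.27 on the GSI arrays of Rec-1 against 5.50 and 5.66 on the Mock arrays. In SP-49 it had 4.99 and 5.25 with GSI against 5.30 and 5.27 with Mock, and in Mino 3.71 and 4.13 against 4.21 and 4.22. The GSI arrays lay below the Mock arrays in all 3 lines, by little. The changes were -0.26 in Rec-1 (95% interval -0.61 to 0.08), -0.17 in SP-49 (-0.51 to 0.18) and -0.29 in Mino (-0.64 to 0.05). The other bright probe set of CD22, 204581_at, had changes of -0.29, -0.49 and 0.14 in the same order of lines, so its direction in Mino was the opposite.

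SIGLEC10, on probe set 1552807_a_at, had 8.27 and 7.98 on the GSI arrays of Rec-1 against 7.89 and 7.90 on the Mock arrays. In SP-49 it had 7.02 and 6.92 with GSI against 7.48 and 7.48 with Mock. In Mino it had 5.73 and 5.09 with GSI against 5.43 and 5.45 with Mock. The GSI arrays of SP-49 were thus below its Mock arrays, those of Rec-1 above, and those of Mino on either side. The change in SP-49 was -0.51 (95% interval -0.92 to -0.10), but did not pass over all genes (adjusted p = 0.428 by limma). The other probe set, 1552806_a_at, had a change of -0.70 in SP-49, with 4.36 and 3.89 on the GSI arrays against 4.90 and 4.74 on the Mock arrays (adjusted p = 0.442 by limma over probe sets). In Rec-1 this probe set had 5.98 and 6.49 with GSI against 6.31 and 6.43 with Mock, so the groups overlapped there.

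FCGR2B, the inhibitory Fc receptor that recruits SHIP-1, had 6.99 and 6.68 on the GSI arrays of Rec-1 against 6.55 and 6.51 on the Mock arrays. SP-49 had 6.87 and 6.72 with GSI against 6.77 and 6.82 with Mock, and Mino 4.27 and 4.48 against 4.21 and 4.15. The GSI arrays lay above the Mock arrays in Rec-1 and Mino by little and overlapped with them in SP-49. The change in Rec-1 was 0.30 (95% interval -0.005 to 0.61; adjusted p = 0.269 by limma), in SP-49 -0.00013 and in Mino 0.19. FCGR2B was read by 1 probe set, 210889_s_at, and has a near-identical relative, FCGR2C, so its values are uncertain to the extent that probes bind both. FCGR2C had 5.51 and 5.05 on the GSI arrays of Rec-1 against 5.85 and 5.98 on the Mock arrays, and 5.65 and 5.01 on the GSI arrays of SP-49 against 5.94 and 5.79 on the Mock arrays. These changes of -0.63 and -0.53 did not pass, and in Rec-1 the sign was opposite to that of FCGR2B. Of 5 measured Fc gamma and neonatal Fc receptors besides FCGR2B, 0 passed in Rec-1, SP-49 or Mino by limma, where 5.77%, 0.192% and 0% of all genes did. An unadjusted p under 0.05 was found for 1, 0 and 0 of them, where 19.2%, 8.87% and 4.90% of all genes had one.

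LILRB1, the receptor for MHC class I, was higher on the GSI arrays of SP-49 without passing. On probe set 211336_x_at SP-49 had 5.79 and 5.01 with GSI against 4.86 and 4.59 with Mock, and on 207104_x_at 5.30 and 5.69 against 4.80 and 4.54. Both GSI arrays were above both Mock arrays on each probe set, with a wide gap between the GSI replicates. The changes were 0.67 (95% interval 0.21 to 1.14; adjusted p = 0.338 by limma) and 0.82 (adjusted p = 0.130 by limma over probe sets). When a gene was represented by the mean of its probe sets, LILRB1 rose by 0.75 in SP-49 and passed (adjusted p = 0.0302 by limma). In Rec-1 the brighter probe set had 3.96 and 4.10 with GSI against 3.69 and 3.86 with Mock, and in Mino 4.24 and 4.11 against 4.29 and 4.31. The suffix x marks probe sets whose probes can match other transcripts, and LILRB1 belongs to a family of similar genes.

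PECAM1 and LAIR1 had no call with GSI. PECAM1, on 208982_at, had 4.15 and 3.33 on the GSI arrays of Rec-1 against 3.60 and 3.66 on the Mock arrays. In SP-49 it had 3.05 and 2.87 with GSI against 3.06 and 2.73 with Mock, and in Mino 2.39 and 2.44 against 2.69 and 2.18. The groups overlapped in each line, and the changes were 0.11, 0.06 and -0.02 in that order. The other 4 probe sets of PECAM1 lay at or below 3.39 on all arrays. In Rec-1 both GSI arrays lay above both Mock arrays on 208981_at, 208983_s_at and 1559921_at. They lay below them on 1558397_at, and none of these changes passed.

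LAIR1 on 208071_s_at stayed between 2.60 and 2.99 on all 12 arrays. Its dimmer probe set 210644_s_at had 2.43 and 2.69 on the GSI arrays of Rec-1 against 2.22 and 1.69 on the Mock arrays, and 2.01 and 1.71 on the GSI arrays of SP-49 against 2.99 and 2.71 on the Mock arrays. The directions were opposite, with changes of 0.61 in Rec-1 and -0.99 in SP-49 that did not pass (adjusted p = 0.181 and 0.164 by limma over probe sets). The difference between these effects was 1.60 (adjusted p = 0.0710 by limma over probe sets).

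**Figure D3:**
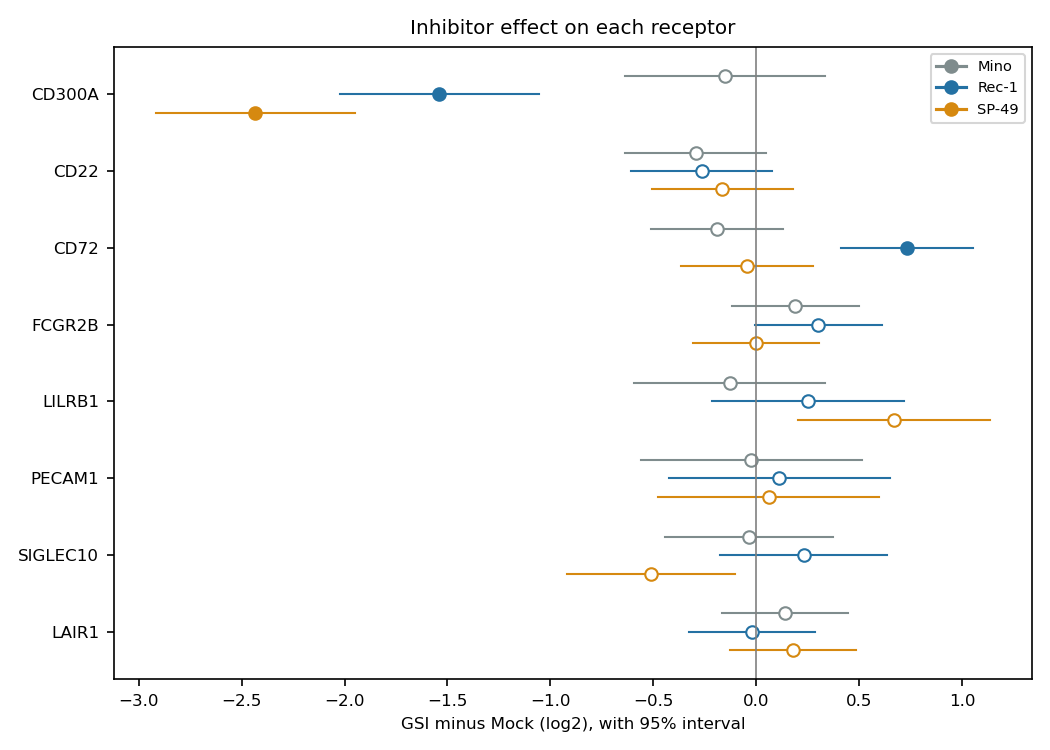
Change with GSI, as GSI minus Mock in log2 units, for each of the 8 receptors (rows) in Mino (grey), Rec-1 (blue) and SP-49 (orange). Points are estimates, lines are 95% intervals for a single gene, and filled points passed an adjusted p of 0.05 by limma. The filled points are CD300A in Rec-1 and SP-49 and CD72 in Rec-1.

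Without inhibitor, the lines differed most in CD300A. Its Mock mean on 209933_s_at was 8.63 in Rec-1, 5.04 in SP-49 and 2.35 in Mino, the last close to the array median. Rec-1 was 12.1-fold above SP-49 (log2 difference 3.59, 95% interval 3.11 to 4.08). The measured log2 difference from Mino was 6.28 for Rec-1 and 2.68 for SP-49. No fold is given for these, since the level in Mino lay close to the median of all values. Each of these neighbouring levels differed by more than the spread of the arrays and passed with limma. Probe set 217078_s_at gave the same order, with differences of 4.18 for Rec-1 minus Mino, 3.38 for Rec-1 minus SP-49 and 0.80 for SP-49 minus Mino.

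SIGLEC10, FCGR2B and CD22 were higher in Rec-1 and SP-49 than in Mino. The Mock means of SIGLEC10 were 7.90 in Rec-1, 7.48 in SP-49 and 5.44 in Mino, so that Rec-1 was 5.48-fold and SP-49 4.12-fold above Mino. Those of FCGR2B were 6.53, 6.79 and 4.18, with Rec-1 5.10-fold and SP-49 6.11-fold above Mino. Those of CD22 were 5.58, 5.28 and 4.21, with Rec-1 2.58-fold and SP-49 2.10-fold above Mino. All of these differences passed, while Rec-1 and SP-49 did not differ beyond the threshold in any of the 3 genes on these probe sets (log2 differences of 0.41, -0.26 and 0.30; adjusted p = 0.134, 0.215 and 0.208 by limma). For SIGLEC10 the dimmer probe set 1552806_a_at did separate them, with 6.31 and 6.43 on the Mock arrays of Rec-1 against 4.90 and 4.74 on those of SP-49, a difference of 1.55.

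CD72 and LILRB1 had another order, with SP-49 highest and Rec-1 lowest. The Mock means of CD72 were 7.69 in SP-49, 6.48 in Mino and 5.49 in Rec-1. Rec-1 was 4.62-fold below SP-49 and 2.0-fold below Mino, and SP-49 was 2.31-fold above Mino, and all of these passed. The Mock means of LILRB1 were 4.73 in SP-49, 4.30 in Mino and 3.78 in Rec-1. For LILRB1 Rec-1 was below SP-49 by -0.95 on the log2 scale (adjusted p = 0.0047 by limma), a call lost when Mock replicate 1 of SP-49 was left out (adjusted p = 0.0525). On this probe set Mino did not differ from either neighbour past the threshold, with -0.53 for Rec-1 minus Mino and 0.43 for SP-49 minus Mino (adjusted p = 0.0991 and 0.189 by limma). Both differences passed with the mean of the probe sets, at -0.52 and 0.49 (adjusted p = 0.00788 and 0.0111 by limma), and under 4 and 3 other alternatives, so these calls depend on the setting. Probe set 207104_x_at alone passed for SP-49 minus Mino, at 0.55 (adjusted p = 0.0361 by limma over probe sets).

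PECAM1 was highest in Rec-1, with Mock means of 3.63 in Rec-1, 2.90 in SP-49 and 2.44 in Mino. No fold is given for Rec-1 against Mino, since the level in Mino lay close to the median of all values. Rec-1 was 1.19 above Mino on the log2 scale, and 0.45 with the mean of the probe sets, and both differences passed. The call for its difference of 0.74 from SP-49 (adjusted p = 0.0416 by limma) was lost in 8 of 12 fits without 1 array. Those without a Mock array of Rec-1 or SP-49 were among them, and the difference was 0.57 without Mock replicate 2 of SP-49. With the mean of the probe sets it was 0.28 and did not pass (adjusted p = 0.172 by limma). LAIR1 had Mock means of 2.76 in Rec-1, 2.72 in SP-49 and 2.71 in Mino and did not differ between any pair of lines on its brighter probe set. On 210644_s_at it was lower in Rec-1 than in SP-49 by -0.90 (adjusted p = 0.00962 by limma over probe sets). Of the 20 probe sets, 10 passed for Rec-1 minus Mino, 9 for SP-49 minus Mino and 7 for Rec-1 minus SP-49, where 16.8%, 17% and 19.2% of all probe sets did. The Mock comparisons share arrays with each other and with the GSI comparisons of the same lines.

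**Figure D4:**
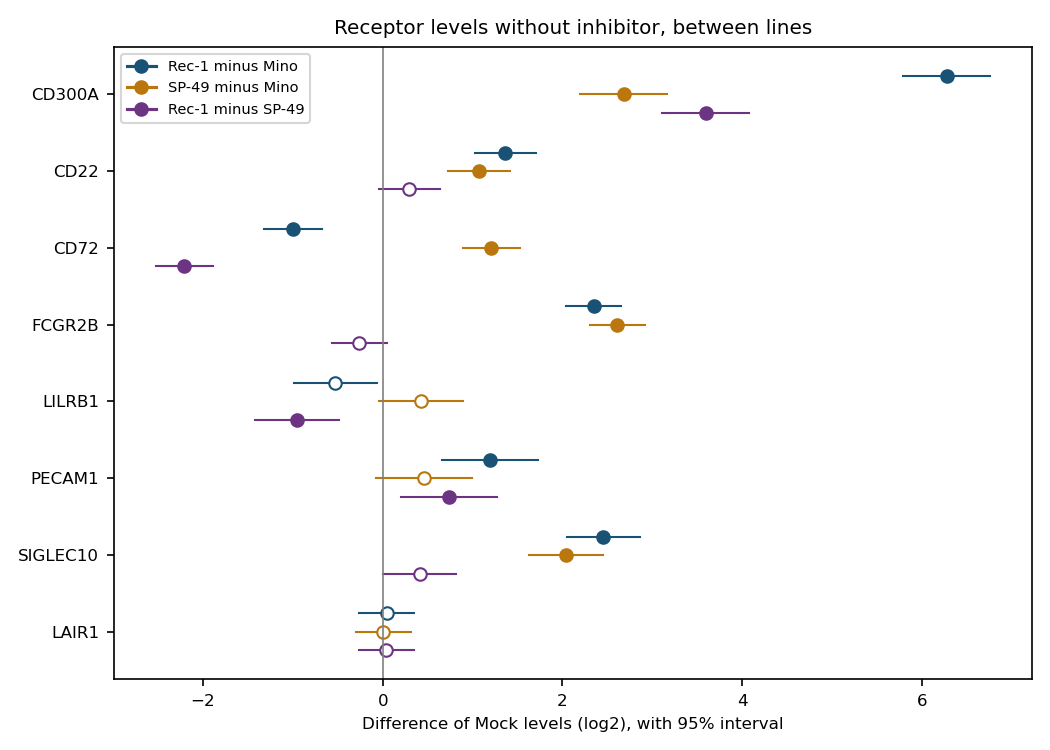
Difference of Mock levels between lines in log2 units for each of the 8 receptors (rows), as Rec-1 minus Mino, SP-49 minus Mino and Rec-1 minus SP-49. Points are estimates, lines are 95% intervals for a single gene, and filled points passed an adjusted p of 0.05 by limma. CD300A has the widest difference (6.28 for Rec-1 minus Mino), and CD72 lies to the left of 0 for both differences of Rec-1.

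Across the 12 arrays, the genes whose log2 levels were most like those of CD300A were MAPKAP1, RPUSD4, RAB21, CTTNBP2 and TMEM191A, with Pearson correlations of 0.982, 0.979, 0.976, 0.971 and 0.970 among 5514 genes whose group means also spanned at least 1 log2 unit. Their own changes with GSI were smaller, between -0.26 and -0.38 in Rec-1 and between -0.17 and -0.68 in SP-49, and none passed. These correlations rest largely on the line, which 4 arrays share. CD72 was most like MPEG1 (0.991), JAZF1 (0.989) and PLCG2 (0.989), of which MPEG1 and PLCG2 also rose with GSI in Rec-1, by 1.86 and 0.64 (adjusted p = 0.000136 and 0.0153 by limma). They were picked for likeness over the same arrays, so their rise is not separate support for that of CD72. SIGLEC10 was most like SMIM14, CBLB and ATPSCKMT (0.993, 0.993 and 0.991), and FCGR2B like NDUFB4, CRNDE and ZNF823 (0.996, 0.996 and 0.994). CD22 was most like RILPL2, TET2 and TMEM163 (0.980, 0.980 and 0.974), LILRB1 like BDKRB2, TBX15 and CCL17 (0.951, 0.935 and 0.933), and PECAM1 like RAD9A, TMEM141 and KCNMB3 (0.971, 0.955 and 0.954). LAIR1 spanned only 0.186 between its group means and was not compared.

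Among 27 measured receptors of 30 other ITIM-bearing receptors written down, 3 passed with GSI in Rec-1 (5.77% of all genes did) and 1 in SP-49 (0.192%). FCRL4, an Fc receptor-like receptor of memory B cells, had 2.26 and 2.39 on the GSI arrays of Rec-1 against 5.69 and 5.51 on the Mock arrays, and 3.12 and 3.37 on the GSI arrays of SP-49 against 6.39 and 6.53 on the Mock arrays. It fell by 3.28 in Rec-1 and by 3.21 in SP-49, so the groups stood far apart in both lines in which CD300A fell. MILR1, an ITIM receptor known from mast cells, rose by 0.83 in Rec-1, with 5.71 and 5.74 on the GSI arrays against 4.99 and 4.80 on the Mock arrays. CLEC4A, a C-type lectin receptor, fell by 0.71 in Rec-1, with 2.59 and 2.89 against 3.21 and 3.70. FCRL5, SIT1, FCRL2 and FCRL3, other members of the list, had no call with GSI. The list medians were 0.14 in Rec-1, 0.06 in SP-49 and -0.13 in Mino, beside 0.01, -0.02 and -0.004 over all genes. In Mino 0 of 27 passed by limma (0% of all genes did), and 2 had an unadjusted p under 0.05 (4.90% of all genes did).

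Of 14 measured kinases, phosphatases and adaptors through which ITIMs act, 1 fell in Rec-1 (5.77% of all genes passed there) and 1 in SP-49 (0.192%), the Src-family kinase FYN in both. FYN had 7.69 and 7.73 on the GSI arrays of Rec-1 against 8.61 and 8.66 on the Mock arrays, and 7.31 and 7.20 on the GSI arrays of SP-49 against 8.10 and 8.01 on the Mock arrays. It fell by 0.93 in Rec-1 (adjusted p = 0.0023 by limma) and by 0.80 in SP-49 (adjusted p = 0.0450 by limma). PTPN6, the gene of SHP-1, had 7.93 and 8.12 on the GSI arrays of SP-49 against 8.72 and 8.67 on the Mock arrays, a change of -0.67 that did not pass (adjusted p = 0.0882 by limma), and a change of -0.08 in Rec-1. INPP5D, the gene of SHIP-1, had 7.72 and 8.0 on the GSI arrays of Rec-1 against 7.46 and 7.29 on the Mock arrays, a change of 0.49 that did not pass either (adjusted p = 0.108 by limma). LYN and PTPN11 had changes between -0.15 and 0.09 in all 3 lines.

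Of 17 measured ligands of these receptors and enzymes that make them, 3 rose with GSI in Rec-1 and none fell there (5.77% of all genes passed in either direction). In SP-49 and Mino 0 passed by limma (0.192% and 0% of all genes did). There 2 and 1 had an unadjusted p under 0.05 (8.87% and 4.90% of all genes did). CD52 and CD24, glycoproteins that SIGLEC10 binds, rose by 1.08 and 0.66 in Rec-1. CD52 had 9.45 and 9.39 on the GSI arrays of Rec-1 against 8.33 and 8.35 on the Mock arrays, and 9.48 and 9.26 on the GSI arrays of SP-49 against 8.79 and 8.81 on the Mock arrays, where its change of 0.57 did not pass (adjusted p = 0.108 by limma). CD24 had 10.91 and 10.78 on the GSI arrays of Rec-1 against 10.18 and 10.18 on the Mock arrays. HLA-C, an MHC class I molecule and ligand type of LILRB1, rose by 0.58 in Rec-1, with 8.69 and 8.76 against 8.18 and 8.11. ST6GAL1, the enzyme that makes the sialic acid linkage CD22 binds, and SEMA4D, the ligand of CD72, had changes of 0.10 and -0.05 in Rec-1 and -0.32 and -0.10 in SP-49, none of which passed.

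Of 10 measured genes of the activating side of antigen signalling, which these receptors oppose, 5 rose and 1 fell with GSI in Rec-1, where 5.77% of all genes passed in either direction, and 1 fell in SP-49, where 0.192% did. Those that rose in Rec-1 were CD79B, a chain of the antigen receptor complex, by 1.06, the exchange factor VAV1 by 0.84, the phospholipase PLCG2 by 0.64, the kinase SYK by 0.60 and the PI3-kinase subunit PIK3CD by 0.56. The list median was 0.52 in Rec-1, 0.07 in SP-49 and -0.03 in Mino, beside 0.01, -0.02 and -0.004 over all genes. CR2, a coreceptor for complement fragments that enhances antigen signalling, fell by 3.14 in Rec-1, with 2.74 and 2.29 on the GSI arrays against 5.63 and 5.67 on the Mock arrays. In SP-49 it fell by 2.75, with 2.28 and 2.11 on the GSI arrays against 5.06 and 4.83 on the Mock arrays. CD79B is also 1 of the 5 B-cell markers whose mean was given above.

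With 1 array left out, the calls of FCRL4 and CR2 in both lines and of FYN, CD52 and CD79B in Rec-1 held in 12 of 12 fits. Other settings bore on some of them. With the mean of the probe sets CD79B had a change of 0.29 and lost its call (adjusted p = 0.171 by limma), as did CLEC4A, PLCG2 and PIK3CD (adjusted p = 0.0623, 0.0635 and 0.0590), and the falls of CR2 shrank to -1.78 in Rec-1 and -1.37 in SP-49, both still past the threshold. In a fit of the 4 Rec-1 arrays alone, of the calls in these lists those of FCRL4 and CR2 held, and those of FYN, CD52 and CD79B, among the rest, were lost (adjusted p = 0.0797, 0.0722 and 0.0742 by limma). In that fit the limma adjusted p was 0.101 for MILR1, 0.242 for CLEC4A, 0.162 for HLA-C and 0.134 for CD24. There it was 0.168 for SYK, 0.154 for PLCG2, 0.113 for VAV1 and 0.193 for PIK3CD. These other calls in Rec-1 did not hold in all 12 fits without 1 array. Each was lost without a Mock array of Rec-1. PIK3CD held in only 2 of the 12 fits and under 4 of the 10 other alternatives, and CLEC4A in 4 and under 7. Both were also lost without single arrays of Mino or SP-49. The call of FYN in SP-49 held in 2 of the 12 and reached 0.393 without Mock replicate 1 of SP-49, and it was lost under 5 of the 10 other alternatives.

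**Figure D5:**
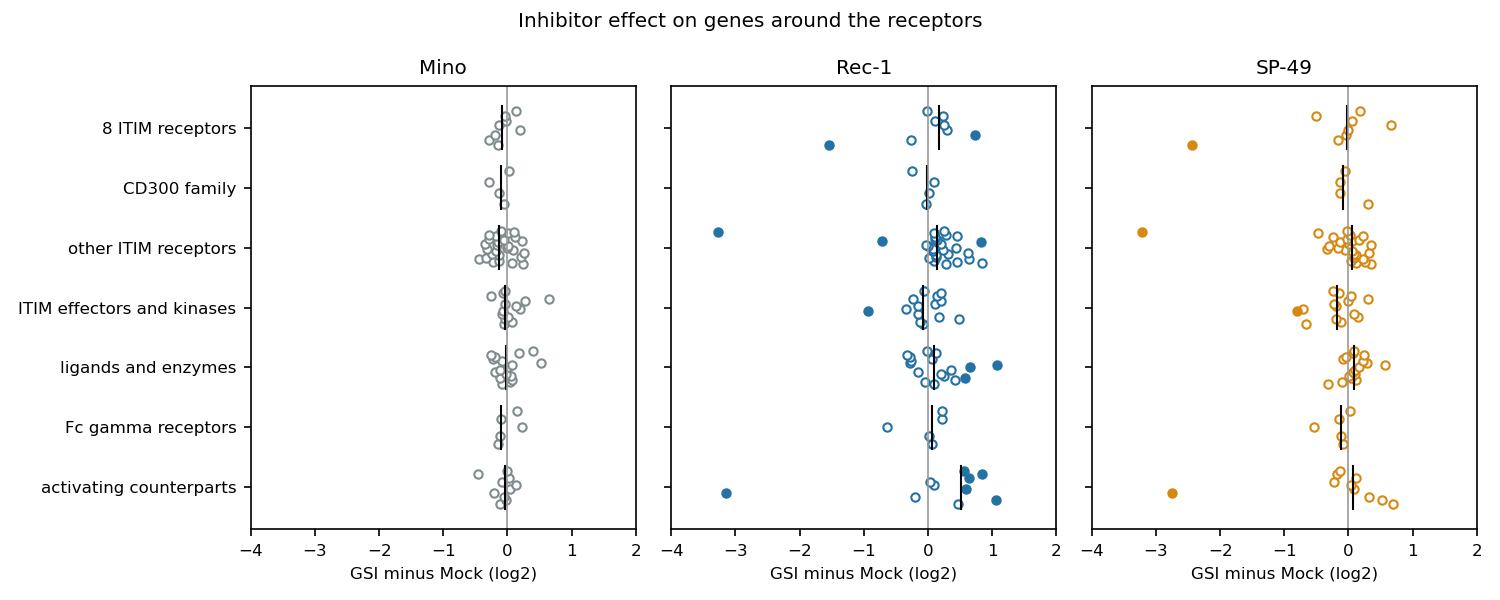
Change with GSI, as GSI minus Mock in log2 units, for the genes of 7 lists (rows) in Mino, Rec-1 and SP-49 (panels). Points are genes, filled where they passed an adjusted p of 0.05 by limma, and black bars are list medians. CD300A, FCRL4, FYN and CR2 are the filled points left of 0 in SP-49, and the activating genes have their median at 0.52 in Rec-1.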

How the data were processed

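RNA of 3 lines, each with GSI or Mock, was measured on 12 Affymetrix arrays (6 groups of 2), labelled as biotinylated cRNA per the labels' protocols. The deposited values are log2 levels normalized between arrays by the authors. RMA and limma are named, without versions, per the submitters' processing notes. The log base was taken as 2 from the range of the values (0.578 to 12.8). No depth applies to arrays, and their number limits the precision (median standard error of a change 0.164).

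Of 54675 probe sets, 41097 named 1 gene in the platform annotation, 1801 several and 11777 none here. A gene was represented by its brightest probe set, without a filter on low values. Model: limma 3.58.1 in R 4.3.3, lmFit with 6 group means over all arrays and eBayes, 6 residual and 5.22 prior degrees of freedom. Tests were two-sided, and p-values were adjusted by Benjamini-Hochberg over 19775 genes within each contrast (over 54675 for probe sets). Tested on simulated data, with changes set in Rec-1 over 19775 genes, the fit recovered 92% of changes of 1 log2 unit and 100% of changes of 2, with 10 false calls. The simulated noise was normal, independent and of the spread that the fit had estimated. These figures therefore check the code and do not give the power for the receptors.

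The 8 receptors, the gene lists and the alternatives were chosen with earlier results of these data known. Named genes were the receptors, list members past the threshold with GSI in any line, up to 4 of the brightest others per list, HES1, and the genes most like each receptor (5 for CD300A, 3 for the others). The neighbours of CD300A, FCGR2C, INPP5D, ST6GAL1, SEMA4D, MS4A1 and CD3D were named in addition for their role or level, after their values were seen. Start regions and gene names came from RefSeq (GRCh38.p14). Same-numbered arrays of GSI and Mock deviated together with r of 0.05 in Mino, 0.09 in Rec-1 and -0.01 in SP-49, so numbers were not taken as pairs. No label names a scan date or batch.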

Additional observations from a re-analysis of the deposited data

Results flagged for a closer look

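The GSI effect on CD300A passed a test of the difference between lines in 3 cases. On the brightest probe set, 209933_s_at, the effect in SP-49 minus that in Mino was -2.28, with changes of -2.43 in SP-49 and -0.15 in Mino. This call was lost in 11 of 22 alternatives, among them 8 of 12 fits without 1 array (adjusted p up to 0.235 by limma, without Mock replicate 1 of SP-49), and the value was -1.11 with the mean of the probe sets. On probe set 217078_s_at the effect in Rec-1 minus that in Mino was -2.35, with changes of -1.99 in Rec-1 and 0.36 in Mino. On the same probe set the effect in Rec-1 minus that in SP-49 was -1.20, with a change of -0.79 in SP-49, while on 209933_s_at this difference was 0.89 and did not pass. On 217078_s_at the Mock mean of SP-49 was 2.03, close to the median of all values (1.99), which limits the fall that could be measured there, so no order of Rec-1 and SP-49 is drawn from either probe set.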

How the results depend on the processing

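Over 22 alternatives, 1560 values of the 8 receptors in 9 contrasts were recomputed, of which 1509 kept their direction or call, 26 lost a call, 24 gained one and 1 reversed. The reversed value was LAIR1 for Mock Rec-1 minus Mock SP-49, 0.04 as reported and -0.43 with the mean of its probe sets. Sign changes of values without a call numbered 51. Receptors past the threshold with GSI in Rec-1 numbered 2 as reported, 1 with only the arrays compared, and 1 to 2 without 1 array (1 without either Mock array of Rec-1). In SP-49 they numbered 1, and 2 with the mean of the probe sets. For the difference Rec-1 minus Mino the count was 0, but 2 with the mean of the probe sets and with an intensity trend and robust prior. It was 1 after quantile normalization was applied again and with both narrow arrays left out, and 0 to 1 without 1 array (1 without GSI replicate 2 of Rec-1). With the replicate number as a block it was also 1, CD300A, with an adjusted p of 0.0423 by limma. The block changed no other count of receptors. For SP-49 minus Mino the count was 1, but 0 with the mean of the probe sets, after quantile normalization and with only the arrays compared, and 0 to 1 without 1 array. For Rec-1 minus SP-49 it was 0, and 1 with the trend and robust prior. For Mock Rec-1 minus Mock SP-49 it was 4, and 2 to 4 without 1 array (2 without Mock replicate 1 of SP-49), and 3 to 5 under the other alternatives, with SIGLEC10 gained under 5 alternatives in all. For Mock Rec-1 minus Mock Mino it was 6 and reached 7, and for Mock SP-49 minus Mock Mino it was 5 and reached 6, where LILRB1 was gained under 5 and 4 alternatives. The causes were not tested. A group left with 1 array was taken to have the spread of the other groups. Levels near 1.99, as of CD300A in Mino, limit what can be detected there.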
